A study of Mus musculus with 6 samples.

Results

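The 10 genes described here are immediate early genes of the AP-1 and EGR type: Fos, Fosb, Jun, Junb, Atf3, Egr1, Nr4a1, Ier2, Dusp1 and Btg2. They were taken by name, and every probe set with 1 of these symbols as its only gene was used. All 10 genes had a probe set, and together they had 12 of the 45101 on the array. Expression was measured in whole testes of mice at postnatal day 21, with 1 array for each of 3 Nxf2 knockout (KO) and 3 wild-type (WT) samples. No treatment beyond housing under barrier conditions is stated. The labels name no strain, no kind of Nxf2 allele and no number of animals per sample. Every p-value therefore measures only the spread between these samples, which may be partly technical. Testis weight was stated to be similar in KO and WT at this age. Nxf2 encodes a germ cell relative of the mRNA export receptor NXF1.

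Immediate early genes are transcribed within minutes of a stimulus, without new protein synthesis, because the factors that switch them on (CREB, SRF and its ETS partners) are already present and are activated by kinases. Their mRNAs carry signals for rapid decay, so the level in a tissue reflects the recent past. The FOS and JUN proteins pair through leucine zippers into AP-1, EGR1 is a zinc finger factor, NR4A1 is an orphan nuclear receptor, and DUSP1 and BTG2 act as brakes on signalling and on the cell cycle. In the testis, pituitary hormones and local growth factors are known to induce members of this class in Sertoli and Leydig cells.

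Promoter sequence (RefSeq, GRCm38.p6) was used for 8 of the 10 genes. Egr1 and Ier2 were not among them, so the motif counts do not cover these genes. The 250 bases before the start of 4 of the 8 genes are shown: Btg2 (chr1:134079156-134079405, minus strand) and Jun (chr4:95052223-95052472, minus strand), the genes that changed, Nr4a1 (chr15:101266596-101266845, plus strand), which had the largest difference, and Fos (chr12:85473640-85473889, plus strand), which varied widely within both genotypes. Capitals mark every match, on either strand, to the cyclic AMP response half-site TGACG or to the AP-1 or CRE-like octamer TNACNTCA, which overlap in a full site.
Btg2: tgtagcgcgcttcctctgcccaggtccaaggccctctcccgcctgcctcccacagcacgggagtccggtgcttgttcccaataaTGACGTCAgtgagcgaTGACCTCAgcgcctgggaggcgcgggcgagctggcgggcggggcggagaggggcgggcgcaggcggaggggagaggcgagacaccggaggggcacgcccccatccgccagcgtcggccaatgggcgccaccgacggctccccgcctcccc
Jun: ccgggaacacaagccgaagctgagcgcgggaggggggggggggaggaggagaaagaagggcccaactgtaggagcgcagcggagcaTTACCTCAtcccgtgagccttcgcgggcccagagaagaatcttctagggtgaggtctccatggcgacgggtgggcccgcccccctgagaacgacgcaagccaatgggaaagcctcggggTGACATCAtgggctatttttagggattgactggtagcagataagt
Nr4a1: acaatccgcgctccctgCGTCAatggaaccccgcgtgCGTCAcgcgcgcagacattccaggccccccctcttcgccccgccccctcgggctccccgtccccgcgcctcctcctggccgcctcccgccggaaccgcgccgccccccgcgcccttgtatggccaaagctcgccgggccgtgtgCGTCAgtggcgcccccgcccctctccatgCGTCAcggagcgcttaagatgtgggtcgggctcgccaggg
Fos: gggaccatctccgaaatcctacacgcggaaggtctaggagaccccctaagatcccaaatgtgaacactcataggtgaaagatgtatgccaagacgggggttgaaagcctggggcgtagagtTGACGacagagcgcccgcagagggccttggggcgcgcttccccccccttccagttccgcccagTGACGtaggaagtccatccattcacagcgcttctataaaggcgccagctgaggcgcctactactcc

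The half-site TGACG was found in 7 of the 8 promoters, all but Jun, against 17.8% of 32851 RefSeq promoter windows of the same length. Nr4a1 held 4 matches, Fos 2, at 129 and 66 bases before the start, and Fosb and Junb 1 each. The full palindrome TGACGTCA was in Btg2, 166 bases before the start, and in Dusp1, 143 bases before it, against 1.55% of all windows. The octamer was in Btg2, Atf3, Jun and Dusp1 (14% of all windows), and the 2 matches in Jun lay 164 and 45 bases before the start. The CArG box, to which SRF binds, had no match in these windows (1.47% of all windows), nor did the AP-1 heptamer TGANTCA (6.75%). Sequence farther from the start was not searched, so the lack of a match here does not show that a gene has no such site. TATAAA was in Fos alone of the 8 (12.4%), the GC box GGGCGG in 7 (32.7%) and CCAAT in 3 (33.8%). A match is a description of letters, and the arrays say nothing on binding.

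Signals are those of the MAS5 algorithm on a linear scale, in which each array was scaled by 1 factor. The single Nxf2 probe set, which checks the labels, read 106 to 131 in KO and 340.4 to 386 in WT. Control ratios of 3′ over 5′ signal, a sign of RNA quality, were 1.77 to 2.08 in KO and 1.92 to 2.19 in WT for Actb, and 1.42 to 1.46 in KO and 1.43 to 1.62 in WT for Gapdh. KO replicate 3 stood apart: the median of 17 macrophage and immune markers was 0.91 above the WT mean on the log2 scale there, against 0.11 and 0.34 in KO replicates 1 and 2 and -0.17 to 0.17 in WT. In bulk tissue, fewer cells of a type and less RNA per cell cannot be told apart. Testis identity was clear, with 17 of 20 listed Sertoli genes and 19 of 20 spermatid genes above the dim limit. That limit is on the mean over all arrays. Some spermatid genes reached it only through WT, such as Akap4 (mean 5.43 in KO and 49.4 in WT). Amh, a Sertoli gene of the immature testis, lay below the limit.

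All 10 genes had a higher mean in KO by their brightest probe set, by 0.12 to 0.99 on the log2 scale with a median of 0.30, but few passed the test. The 10 include Fosb, Junb and Atf3, which lay below the dim limit and were not tested. Of the 12 probe sets 9 were bright enough to be tested and 2 rose, 1 of Btg2 and 1 of Jun (limma, adjusted p under 0.05 over 27022 probe sets); none fell. Of all tested probe sets, 7.49% were called in either direction and 2.26% as higher in KO. The 3 KO values lay wholly above the 3 WT values in 3 of the 9 tested probe sets, against 19.1% of all tested ones, and in 1 dim probe set. Over all 18193 genes 57.6% had a higher KO mean, with a median of 0.038. Among the marker lists, medians over tested genes were 0.49 for immune, 0.46 for fat, 0.35 for Leydig and 0.33 for undifferentiated spermatogonial genes. They were 0.27 for endothelial, 0.24 for Sertoli, 0.19 for red blood cell and 0.09 for myoid genes. Pachytene (-0.17), epididymal (-0.44) and spermatid genes (-1.25) had negative medians. Higher KO levels were thus not particular to the 10 genes. All 10 members also had higher KO means after quantile normalization and after median centring. With array weights, and without WT replicate 3, 9 of the 10 did. Centring each array on its Sertoli markers lowered every difference by 0.26: 7 of the 10 then had higher KO means, with a median of 0.04 against -0.22 for all genes. Over all probe sets the calls were 610 higher and 1414 lower. Of 1629 calls after median centring 247 were higher, and after Sertoli centring 42 of 6286.

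**Figure D1:**
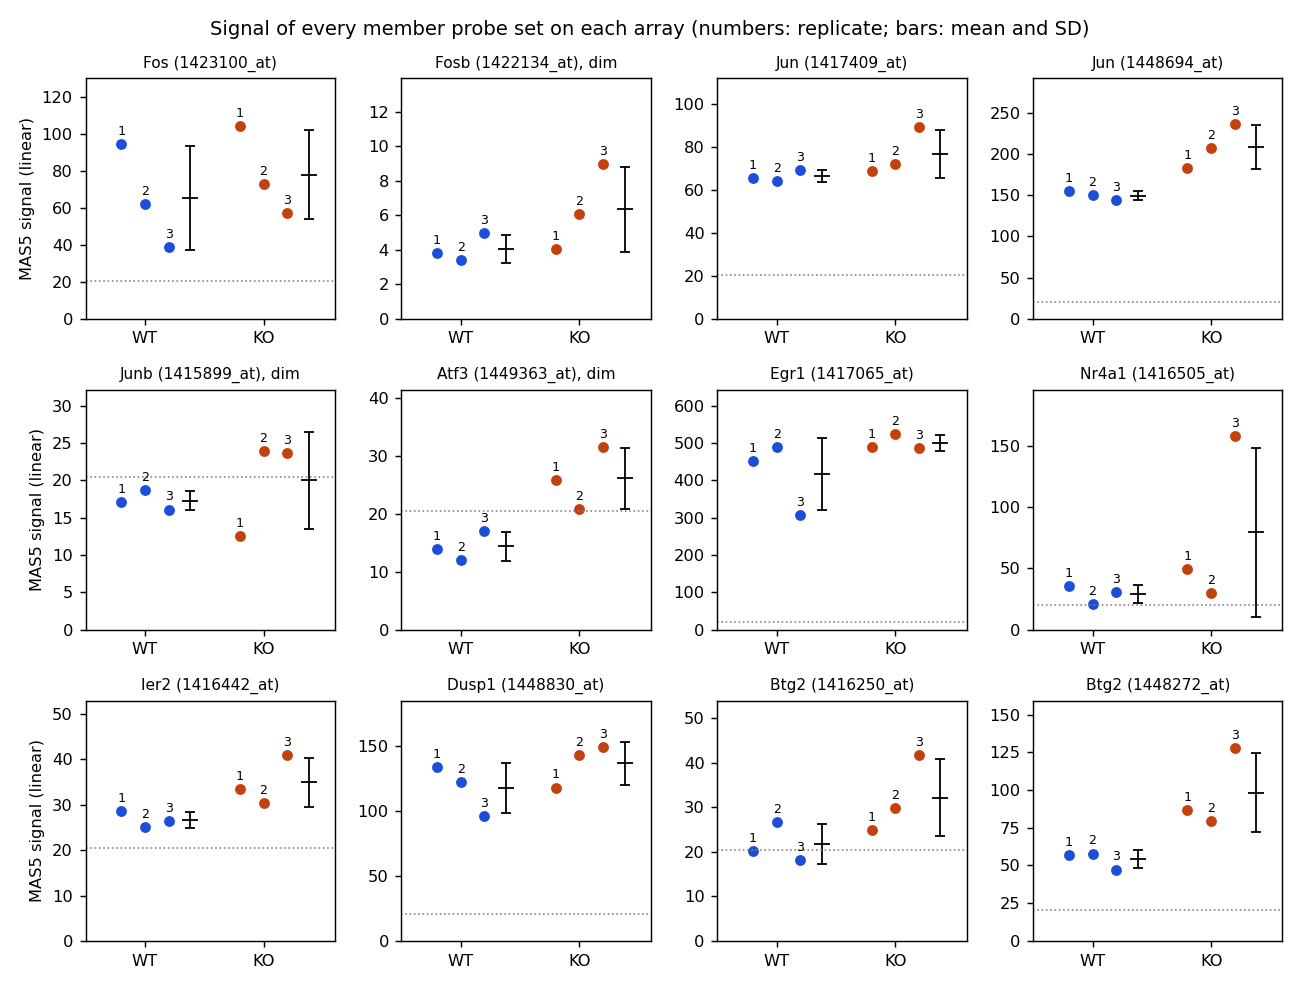
MAS5 signal (linear axis from 0) of the 12 probe sets of the 10 genes in WT (blue) and KO (orange), 1 point per array with its replicate number; bars give the mean and SD of 3 arrays and the dotted line the dim limit of 20.5. KO replicate 3 was the highest array for 7 of the 10 genes, and the groups overlap in Fos, Fosb, Junb, Egr1, Dusp1, Nr4a1 and the dimmer probe sets of Jun and Btg2.

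Among the AP-1 subunits, Jun rose by its brighter probe set. Its signals were 183, 207 and 237 in KO replicates 1 to 3 and 155, 149.8 and 144 in WT replicates 1 to 3. The groups did not overlap and the WT arrays lay close together. The log2 difference was 0.46 ± 0.108 (SE; limma adjusted p = 0.033), which is 1.37-fold after 7 was added to each signal. The mean raw signal was 149.6 ± 5.5 in WT and 209 ± 27 in KO (SD, n = 3 each). The call was lost when any 1 of 5 arrays was left out (adjusted p 0.0316 to 0.111 over the 6 omissions), and after Sertoli centring (log2 difference 0.20, adjusted p = 0.191). The dimmer Jun probe set did not pass: it read 68.5, 71.7 and 89.1 in KO and 65.6, 64.2 and 69.2 in WT, a log2 difference of 0.18 (adjusted p = 0.389). Both probe sets of Jun, the main partner of FOS proteins, had their highest value in KO replicate 3.

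Fos, the founding member of the class, differed more between arrays of 1 genotype than between genotypes. It read 104, 72.6 and 56.9 in KO replicates 1 to 3 and 94.6, 61.9 and 38.7 in WT replicates 1 to 3. The ranges overlapped, and replicate 1 was the highest and replicate 3 the lowest array of both genotypes. At each replicate number the KO array read higher than the WT array. The log2 difference was 0.27 ± 0.278 (SE, adjusted p = 0.546), with means of 77.8 ± 23.8 for KO and 65 ± 28.1 for WT (SD, 3 arrays per genotype), and it was -0.02 without WT replicate 3. The residual SD of Fos within genotypes was 0.496 on the log2 scale, above that of 98.8% of all tested probe sets, whose median was 0.128.

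Atf3, a stress-induced bZIP repressor, lay just under the dim limit with a mean of 20.2 over the 6 arrays and was therefore not tested. It read 25.9, 20.9 and 31.5 in KO and 14, 12.1 and 17 in WT. The groups did not overlap, at a log2 difference of 0.62. This probe set was the member just outside the limit of 20.5, and the second probe set of Btg2, with a mean of 26.9, was the one just inside it. Junb, a JUN relative that often restrains growth, was also dim: it read 12.5, 23.9 and 23.6 in KO and 17.1, 18.7 and 16.1 in WT. The KO arrays spread to both sides of the WT arrays, at a log2 difference of 0.12. Fosb, a FOS relative, was near the floor on all 6 arrays, at 4.02 to 8.95 in KO and 3.37 to 4.97 in WT, so these data hold no usable level for it.

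Nr4a1, known as NUR77, an orphan receptor that LH induces in Leydig cells, had the largest difference of the 10 genes, and its value was highest by far on 1 array. It read 49.9, 30.2 and 158 in KO replicates 1 to 3 and 35.8, 20.9 and 30.6 in WT. The value in KO replicate 3 was 3.17 times that of the next highest array, while KO replicate 1 lay above all WT arrays and KO replicate 2 within their range. The log2 difference was 0.99 ± 0.436 (SE, adjusted p = 0.17), and it was 0.37 without KO replicate 3 (adjusted p = 0.42). Its residual SD of 0.815 exceeded that of 99.9% of tested probe sets. The relatives Nr4a2 and Nr4a3, singled out after their values were seen, peaked on the same array: Nr4a2 read 47.5, 27.6 and 154 in KO and 35, 26.8 and 29.8 in WT. Nr4a3 read 43.4, 44.3 and 96.4 in KO and 45.4, 35.2 and 61.1 in WT. Neither passed the test, with log2 differences of 0.85 (adjusted p = 0.228) and 0.28 (adjusted p = 0.535).

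Egr1, a zinc finger factor downstream of ERK signalling, did not follow that pattern. Its signals were 489, 525 and 486 in KO and 452, 489.8 and 307 in WT. The KO arrays lay within a narrow band that WT replicate 2 reached, and WT replicate 3 was far below the rest. The mean was 499.9 ± 21.8 in KO and 416 ± 96.3 in WT (SD, n = 3 each), a log2 difference of 0.29 ± 0.143 (SE, adjusted p = 0.214) that shrank to 0.09 without WT replicate 3.

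Btg2, an antiproliferative gene and target of p53, had the clearest change of the 10 genes. The brighter probe set read 86.5, 79.7 and 128 in KO and 57.1, 57.9 and 47.3 in WT. Every KO array lay above every WT array, with KO replicate 3 the highest. The log2 difference was 0.76 ± 0.173 (SE; limma adjusted p = 0.0302), which is 1.69-fold after 7 was added to each signal. The mean raw signal was 54.1 ± 5.92 in WT and 98 ± 26.1 in KO (SD, n = 3 each). After Sertoli centring the log2 difference was 0.50 (adjusted p = 0.0452). The call was lost without KO replicate 3 (log2 difference 0.56, adjusted p = 0.0674), without WT replicate 1 (adjusted p = 0.0998) and without WT replicate 3 (adjusted p = 0.0698). The dimmer probe set read 24.9, 29.8 and 41.7 in KO and 20.2, 26.7 and 18.2 in WT. It overlapped between the groups and did not pass, at a log2 difference of 0.44 ± 0.189 (SE, adjusted p = 0.163). The dimmer probe set passed with array weights (limma adjusted p = 0.034), which gave WT replicate 1 a weight of 8.37 and the others 0.375 to 1.37. That setting made 7217 calls over all probe sets, against 2024 without weights.

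Ier2, a small nuclear immediate early protein, was separated but did not pass. It read 33.5, 30.4 and 40.9 in KO and 28.5, 25.1 and 26.3 in WT. All KO arrays were above all WT arrays, yet close to them, with a log2 difference of 0.31 ± 0.146 (SE, adjusted p = 0.19). Dusp1, the phosphatase that switches off MAP kinases, read 118, 143 and 149 in KO and 134, 122 and 96.3 in WT. Here KO replicate 1 lay below both WT replicates 1 and 2, and the log2 difference of 0.21 ± 0.141 (SE) did not pass (adjusted p = 0.352). With Sertoli centring the Dusp1 difference turned to -0.05.

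**Figure D2:**
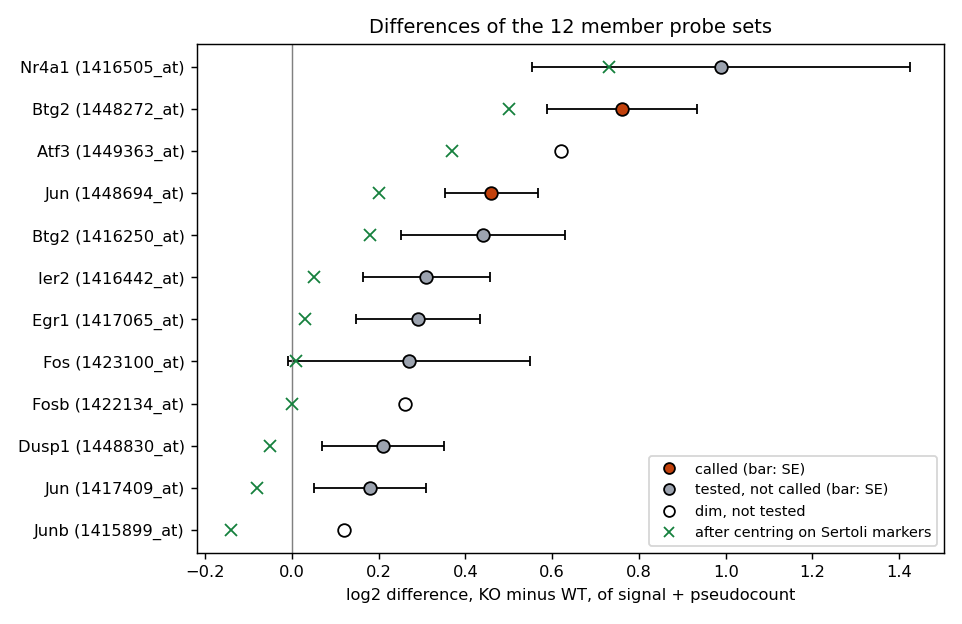
Log2 differences (KO minus WT) of the 12 probe sets on the log2(signal + 7) scale, with the SE of the fit for tested probe sets; crosses give the same differences after each array was centred on its Sertoli markers. Only 1 probe set of Btg2 and 1 of Jun (orange) passed, and the centring moved all 12 down by 0.26, which left 1 probe set of Btg2 called.

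The arrays were not alike in these genes. Relative to the WT mean, the median over the 10 genes was 0.28, 0.31 and 0.52 in KO replicates 1 to 3 and 0.08, 0.01 and -0.06 in WT replicates 1 to 3. KO replicate 3 held the highest value for 7 genes, KO replicate 2 for Egr1 and Junb, and KO replicate 1 for Fos. The lowest value was on WT replicate 3 for 5 genes, on WT replicate 2 for 4 and on KO replicate 1 for Junb. Without KO replicate 3 the 10 genes still had higher KO means, with a median of 0.34, but Btg2, Jun and every other member then missed the threshold (2 at an unadjusted p under 0.05).

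The list medians of immune, Leydig, Sertoli, endothelial, myoid and undifferentiated spermatogonial markers were also highest in KO replicate 3, whereas that of fat was highest in KO replicate 2 (0.54, against 0.40 in KO replicate 3), and spermatid genes were lowest in KO replicate 1 (-1.59, against -0.82 in KO replicate 3). For 17 macrophage and immune genes the summed signal was 2883 to 4663 in KO and 2099 to 2942 in WT, and 14 had higher KO means but none passed (9 at an unadjusted p under 0.05 in limma). Csf1r, the macrophage growth factor receptor gene, singled out with Star after their values were seen, read 284, 317 and 516 in KO and 259, 202 and 331 in WT. For 10 Leydig cell genes the sum was 4727 to 6560.4 in KO and 4182 to 4574 in WT, all 10 means were higher and 2 rose. Star, which feeds cholesterol into steroid synthesis, read 261, 234 and 401 in KO and 102, 151 and 182 in WT, and rose by 1.01 on the log2 scale (adjusted p = 0.0271). Neither of the 2 other tested probe sets of Star passed. For 17 Sertoli cell genes the sum was 10188 to 11059.9 in KO and 9155 to 9547 in WT, and 4 rose. In endothelium 2 of 11 rose (sum 527 to 706 in KO, 454 to 476 in WT), and among undifferentiated spermatogonial genes 5 of 9 (3614 to 3697 in KO, 3007 to 3020.4 in WT). None of 11 peritubular myoid genes passed (2 at an unadjusted p under 0.05; 4782 to 5314 in KO, 4553 to 4801 in WT). Spermatid genes fell in 15 of 19 (2374 to 2528 in KO, 3659 to 4940.2 in WT) and pachytene genes in 5 of 12 (11315 to 12965 in KO, 13438 to 14039 in WT). Some of the spermatid genes, such as Capza3 (mean 6.41 in KO and 77.6 in WT), reached the dim limit only through WT. Of neighbouring tissue, 2 of 6 fat genes rose (903 to 1164 in KO, 469 to 789 in WT), 1 of 5 epididymal genes rose and 3 fell (810.1 to 1113 in KO, 1155 to 1481 in WT), and neither of 2 red blood cell genes passed (923 to 944 in KO, 906 to 999 in WT; 0 at an unadjusted p under 0.05). No marker was listed at 0, and the dim ones included Itgam, Tie1 and Prm2. The part of these cell types in the values of the 10 genes was not tested.

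**Figure D3:**
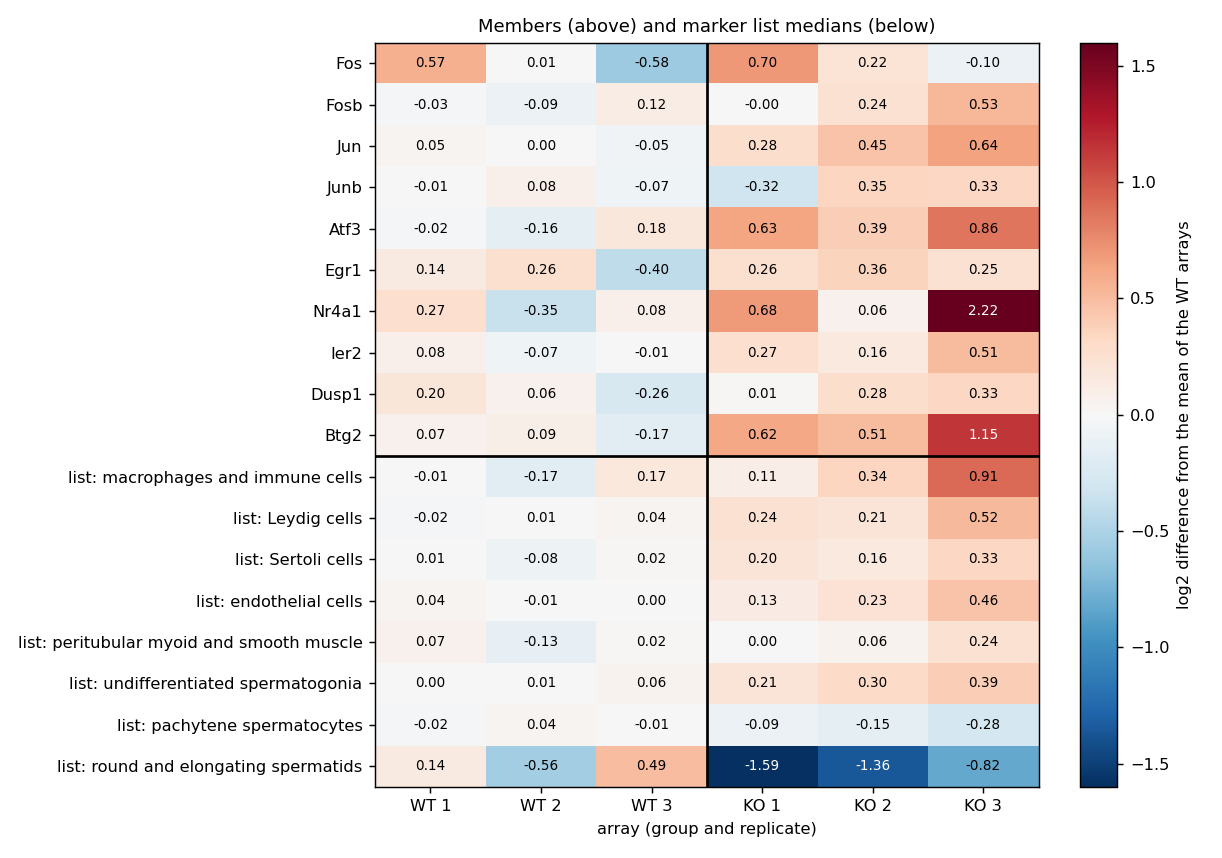
Log2 difference of each array from the mean of the WT arrays for the brightest probe set of each of the 10 genes (upper block) and for the median of 8 marker lists (lower block). KO replicate 3 has the largest value of Nr4a1 (2.22), Btg2 (1.15) and the immune list (0.91), while Fos is highest in KO replicate 1 (0.70).

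Most related factors also had higher KO means, and few passed the test. Of 19 further AP-1, EGR and NR4A family genes 13 were tested and 2 rose, with a median of 0.32 and 10 higher means. Maf, a large bZIP factor also known from macrophages, read 442, 460.3 and 592 in KO and 392, 312 and 349 in WT (log2 difference 0.49 ± 0.117 SE, adjusted p = 0.035). Its call held under 1 of the 6 omissions. Jund, the JUN member that is expressed without a stimulus, rose by 0.19 on the log2 scale (adjusted p = 0.0445), a call lost under every omission and a difference of -0.07 after Sertoli centring. Egr2 (0.40, adjusted p = 0.144), Mafg (0.36, adjusted p = 0.114) and Mafk (0.24, adjusted p = 0.131) did not pass on the log2 scale. Egr3, Egr4, Batf, Batf2 and Batf3 were dim.

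Of 49 other immediate and delayed early genes 44 were tested: 2 rose and 2 fell, and the median was 0.19. Dusp5, a nuclear ERK phosphatase, read 139, 133 and 139 in KO and 99.5, 86.1 and 88.5 in WT. That separation was wide beside the spread, at a log2 difference of 0.55 ± 0.105 (SE, adjusted p = 0.0163), and it stayed called under 5 of the 6 omissions. Klf6, a Krüppel-like factor, rose by 0.24 on the log2 scale (adjusted p = 0.0444), but was at -0.02 after Sertoli centring. None of its 4 other tested probe sets passed, and the call held under 1 of the 6 omissions. Arc, a neuronal activity gene, went the other way, at 244, 226 and 257 in KO and 400.0, 368 and 381 in WT. It fell by 0.65 on the log2 scale (SE 0.079, adjusted p = 0.004) and kept its call under all 6 omissions. Crem, the CREB relative that drives spermatid genes, fell by 0.39 on the log2 scale, from 659, 679 and 622 in WT to 509.8, 548 and 438 in KO (adjusted p = 0.0234). None of its 3 other tested probe sets was called lower, and 1 had the opposite sign. Irf1, Sgk1 and Zfp36l1 had log2 differences of 0.42, 0.25 and 0.20 and did not pass (adjusted p = 0.0625, 0.0614 and 0.0538).

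Upstream, 28 of 36 listed genes of the MAPK, SRF and CREB routes were tested, and 2 rose with a median of 0.20 over the list. Rps6ka3, the ERK-activated kinase RSK2, rose by 0.28 on the log2 scale (adjusted p = 0.0378) and its second tested probe set was called too. Mrtfb, an SRF coactivator, rose by 0.24 on the log2 scale (adjusted p = 0.0433), but both of its other tested probe sets had the opposite sign. Neither call held when any array was left out. Elk1, an ETS partner of SRF, had a log2 difference of 0.44 (adjusted p = 0.061), Mapkapk2 one of 0.45 (adjusted p = 0.0633) and Araf one of 0.32 (adjusted p = 0.0614). Srf itself, singled out after its value was seen, stood at 0.02 (adjusted p = 0.928).

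Downstream, 10 of 20 listed AP-1 targets were tested and 1 rose, with a median of 0.16. Hmox1, the heme oxygenase of stressed cells and macrophages, read 163, 192 and 268 in KO and 137, 132 and 129 in WT (log2 difference 0.59, adjusted p = 0.0467). Its call held under 1 of the 6 omissions. Timp1, a protease inhibitor, read 53.8, 89.7 and 145 in KO and 53.1, 45.1 and 64.8 in WT, and neither it (0.67, adjusted p = 0.152) nor Cd44 (0.39, adjusted p = 0.183) nor Vim (0.11, adjusted p = 0.141) passed on the log2 scale. Of 15 stress and heat shock genes, Ddit4, a stress-induced inhibitor of mTORC1, rose by 0.25 on the log2 scale (adjusted p = 0.0296), with a difference of -0.01 after Sertoli centring. The other 14 did not pass by their brightest probe sets, and the list's median was 0.17. Among them the chaperone gene Dnajb1 had a log2 difference of -0.25 (adjusted p = 0.0509), while its 1 other tested probe set was called lower. Hspa1b had a log2 difference of 0.30 (adjusted p = 0.0695) and Hspd1 one of 0.21 (adjusted p = 0.0798).

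**Figure D4:**
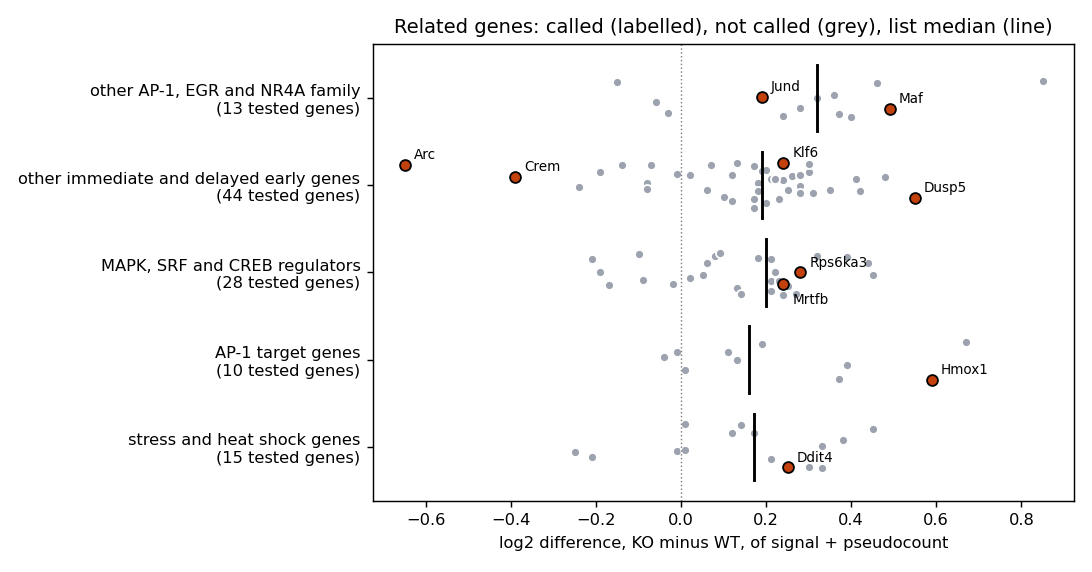
Log2 differences (KO minus WT) of the tested genes of 5 related lists, 1 point per gene by its brightest probe set; labelled orange points passed the test, grey points did not, and the black line is the list's median. The medians lie between 0.16 and 0.32, and Arc and Crem are the genes that fell.

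The 6 genes whose profile over the 6 arrays was nearest to the mean profile of the 7 tested members were Nudt8, Hoxd10, St6galnac4, Zglp1, Crabp1 and Hlf, out of 12165 genes. The mean absolute difference from the members' profile was 0.045 to 0.057 on the log2 scale. That profile, centred on its own mean, was 0.17, 0.06 and 0.48 in KO replicates 1 to 3 and -0.04, -0.23 and -0.43 in WT replicates 1 to 3. Since the members' profile is higher in KO, a higher KO mean in these 6 genes follows from how they were chosen. The points share their arrays and their scaling.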

How the data were processed

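Whole testes from postnatal day 21 were measured on 1-colour Affymetrix arrays, 3 KO and 3 WT by sample title. The deposited table gives signal intensity on a linear scale, which the authors made with MAS5 (no version), per the submitters' processing notes. MAS5 multiplies each array by 1 factor, so a level is relative to its array: the mean without the outer 2% at each end was 150.0 on all arrays. Detection calls were not used here, and precision is limited by 3 arrays per group.

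Of 45101 probe sets 64 were controls, and 34945 had 1 symbol, 932 several and 9160 none in the platform annotation; 34741 symbols were found in RefSeq by Entrez number. Values were taken as log2(signal + 7), 7 being the 25th percentile of all values, which understates folds of dim probe sets. A mean of 20.5, the 40th percentile, was the dim limit, leaving 27022. The test was that of limma 3.58.1 (R 4.3.3; intensity trend, two-sided, no covariate), with Benjamini-Hochberg adjustment over all of these and a call at adjusted p under 0.05. The fit was tested on simulated arrays.

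The members and gene lists were chosen with earlier results of these data known. A list gene is represented by its brightest probe set. Named were all members and, per related list, up to 6 called genes per direction and the 3 next by p; likeness is the mean absolute difference of centred log2 profiles, without accessions, Gm and RIKEN names. The alternatives were quantile normalization, centring on the median or on Sertoli markers, pseudocounts of 1 and 39, other dim limits, no trend, array weights, a replicate block and each array left out.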

Additional observations from a re-analysis of the deposited data

How the results depend on the processing

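The median difference of 0.30 over the 10 genes lay between 0.21 and 0.42 under all alternatives except centring on Sertoli markers (0.04). The 2 called member probe sets became 1 with Sertoli centring, 0 without the dim filter and 0 without the intensity trend (3 and 4 at an unadjusted p under 0.05 in limma), and 0 to 2 when each array was left out. With array weights there were 3, the dimmer Btg2 probe set being added. Over all probe sets the 2024 calls became 6286 with Sertoli centring, 1005 without the dim filter, 743 without the trend, 7217 with array weights, 4503 with the replicate block and 159 (without WT replicate 1) to 1534 when arrays were left out. Fos changed sign with array weights (-0.14) and lay between -0.02 and 0.56 when arrays were left out. With Sertoli centring the dimmer Jun probe set was at -0.08 and Dusp1 at -0.05. Apart from what these settings hold by construction (probe sets tested, a common shift, fewer arrays), the cause was not tested.

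Titles number both genotypes 1 to 3, and the design speaks of pairs without saying what pairs them. Deviations of same-numbered arrays from their group means correlated at 0.079, 0.457 and 0.266, and 5 of 6 arrays correlated best with their own number, a hint from the data and not from the design. With the replicate block Nr4a1 passed (limma adjusted p = 0.0413), and 3 member probe sets were called. Fos did not pass with the block (limma adjusted p = 0.153, against 0.546 without it). Over all probe sets that setting made 4503 calls, against 2024 without the block. The Nr4a1 signal was 158 in KO replicate 3 and at most 49.9 on every other array.

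Fosb, Junb and Atf3 lay below the dim limit, so their differences carry no test, and the pseudocount shrinks them: Atf3 was at 0.28 with a pseudocount of 39.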
